A study of Homo sapiens with 4 samples.

Results

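The 29 features described here carry LINC names, the symbols given to long intergenic noncoding RNA genes, and had a mean of at least 50 counts over the 4 libraries of the count table. They were selected on that mean count among all GeneIDs made of LINC and digits, and 1 name that met the mean was left out by rule, so the 29 stand among 2134 LINC names and 59385 features in all. The mean count is therefore a description and not a finding. RNA was sequenced from C4-2, a castration-resistant prostate cancer cell line derived from LNCaP and labelled as epithelial. The cells were kept for 3 days in RPMI medium with β-hydroxybutyrate (BHB) at 50 mM, or in RPMI medium alone as the control, and all were maintained in RPMI with fetal bovine serum. There were 2 BHB libraries and 2 control libraries, each a replicate of 1 cell line. The labels do not say whether replicates were separate cultures, so p-values measure a spread among these libraries that may be purely technical. With 2 libraries against 2, an exact permutation test of a single value cannot go below a two-sided p of 0.333, so tests were made in the edgeR fit of the whole table.

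Long intergenic noncoding RNAs are made by RNA polymerase II from stretches between coding genes, and many are capped, spliced and polyadenylated like messenger RNAs. Some act on chromatin or on neighbouring genes in the nucleus, others bind proteins or microRNAs, and for many no role is known. A LINC symbol is a serial number and says nothing of function. BHB is a ketone body that cells can oxidise as fuel and that is also known to inhibit class I histone deacetylases, and the series is about ketones and EZH2, a histone methyltransferase, in prostate cancer.

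The DNA around the start of 5 of the 29 is shown because their counts carry the account below. LINC01521 and LINC01504 had the lowest and the highest fitted fold change, LINC00526 and LINC00667 start back to back by RefSeq, and LINC00571 is an abundant member with a start of a different kind. Each window runs from 250 bases before to 50 bases after the start, 5′ to 3′ on the strand of the gene, from RefSeq (GRCh38.p14). Capitals mark GC boxes, CCAAT boxes, TATA boxes, androgen receptor half-sites and E-boxes, whose letters are given below and which were searched on both strands without regard to overlap between motifs.
LINC01521, chr22:31346509-31346808, plus strand: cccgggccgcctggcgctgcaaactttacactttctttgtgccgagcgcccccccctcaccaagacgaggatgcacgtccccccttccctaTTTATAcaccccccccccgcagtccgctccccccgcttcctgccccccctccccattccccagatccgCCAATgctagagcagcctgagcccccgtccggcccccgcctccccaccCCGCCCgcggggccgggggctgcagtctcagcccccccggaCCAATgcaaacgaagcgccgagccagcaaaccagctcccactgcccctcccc
LINC01504, chr9:72305186-72305485, plus strand: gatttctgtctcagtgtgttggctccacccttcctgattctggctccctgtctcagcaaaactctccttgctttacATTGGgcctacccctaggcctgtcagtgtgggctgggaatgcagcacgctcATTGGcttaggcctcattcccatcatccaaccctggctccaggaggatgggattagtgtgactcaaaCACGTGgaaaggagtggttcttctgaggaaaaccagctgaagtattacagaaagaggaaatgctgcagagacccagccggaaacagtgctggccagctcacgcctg
LINC00526, chr18:5237980-5238279, minus strand: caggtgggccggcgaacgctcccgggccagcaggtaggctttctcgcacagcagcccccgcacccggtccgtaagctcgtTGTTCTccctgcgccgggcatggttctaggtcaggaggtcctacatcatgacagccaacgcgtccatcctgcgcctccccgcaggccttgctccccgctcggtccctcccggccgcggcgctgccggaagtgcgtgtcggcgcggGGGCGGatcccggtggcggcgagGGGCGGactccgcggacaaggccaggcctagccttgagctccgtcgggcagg
LINC00667, chr18:5237850-5238149, plus strand: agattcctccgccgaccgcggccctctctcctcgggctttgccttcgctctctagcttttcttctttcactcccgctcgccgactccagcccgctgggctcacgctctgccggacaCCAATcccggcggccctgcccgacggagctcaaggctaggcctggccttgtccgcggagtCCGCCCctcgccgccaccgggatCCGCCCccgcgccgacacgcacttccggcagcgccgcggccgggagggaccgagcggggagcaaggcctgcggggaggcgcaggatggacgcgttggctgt
LINC00571, chr13:38143183-38143482, minus strand: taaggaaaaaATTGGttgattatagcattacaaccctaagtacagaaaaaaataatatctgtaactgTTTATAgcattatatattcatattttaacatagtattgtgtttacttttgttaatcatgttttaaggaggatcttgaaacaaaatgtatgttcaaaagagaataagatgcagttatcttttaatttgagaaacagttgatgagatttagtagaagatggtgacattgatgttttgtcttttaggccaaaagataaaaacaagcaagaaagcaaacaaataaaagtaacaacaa

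The windows of LINC00526 and LINC00667 lie on opposite strands and share 170 bases, with the same GC boxes read from both sides. The 2 have a GC content of 72% each, with 35 CpG in the window of LINC00526 and 38 in that of LINC00667. The LINC00571 window has a GC content of 26.3% and 0 CpG. RefSeq gave 21 windows for 18 of the 29, since 3 had a second start. Of the 21 windows, 57.1% held a GC box (the letters GGGCGG), against 44.9% of all 35116 promoter windows, and 42.9% held a CCAAT box, against 34.6% of all. The letters TATAAA of a TATA box were in 14.3% of the windows of these genes and in 11.5% of all windows. An androgen receptor half-site, read as TGTTCT, was in 19.05% of the windows of these genes and in 14.8% of all. An E-box, read as CACGTG, was in 4.76% of the windows of these genes and in 7.26% of all. The median CpG number was 14 in both sets. A match is a description of the letters and not a binding site. Windows that overlap, such as both of LINC00960 and those of LINC00526 and LINC00667, count the same letters more than once.

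By GENCODE release 29 (GRCh38), all 29 were placed, on 16 chromosomes, and 26 are typed as lincRNA. The others are LINC00624, typed antisense, LINC00899, a processed transcript, and LINC01529, a transcribed unprocessed pseudogene whose reads can be shared with related copies. The word intergenic does not hold for all of them. In 6 of 29 (20.7%) the exons lie opposite exons of a coding gene, against 0.907% of the 2095 other placed LINC names, and in 17 of 29 (58.6%) they lie opposite an exon of any gene, against 11.6%. Their median exon length in the table was 4176 bases, against 1912 bases for the other LINC names. The minimum was set on counts without regard to exon length, which favours longer features, and longer exons have more room to overlap. How much of these contrasts comes from the selection was not tested. In 11 of the 29 the exon length equals that of release 29, so the coordinates and overlaps of the rest are approximate.

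Total counts lay between 2233711 and 2272004 in the BHB libraries and between 2237634 and 2565080 in the control libraries. The 29 held 0.317% (95% Wilson interval 0.310 to 0.324) and 0.301% (0.294 to 0.308) of all counts in BHB replicates 1 and 2, and 0.300% (0.294 to 0.307) and 0.342% (0.334 to 0.349) in control replicates 1 and 2. Intervals cover counting error only. The BHB shares lie within the range of the control shares. Of the other LINC names, 1717 were at 0 in all 4 libraries. All 10 luminal prostate markers had counts. In 9 of the 10 control replicate 1 was the higher control, as in KLK3, the gene for prostate-specific antigen, with 154 and 191 counts in BHB libraries and 448 and 97 in controls. The exception was the keratin gene KRT8, with 9365 and 9221 in BHB libraries and 10831 and 12028 in controls. Summed basal, fibroblast, endothelial and leukocyte markers had 0 to 12 counts per library for each type. KRT5, TP63, DCN, LUM, CDH5, KDR, PTPRC and CD3E were at 0. The kit was stranded, and the strand setting of the counting is not given in the sources used here. Which strand's RNA gave the counts under a name therefore cannot be told apart, and fewer cells making an RNA cannot be told apart from less of it per cell.

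LINC01709 (chromosome 1, 101639548 to 101787572) was the most abundant of the 29, with 1432 and 1006 counts in BHB libraries and 1416 and 1672 in controls. BHB replicate 2 was the lowest of its 4 values and BHB replicate 1 lay between the controls. Its 483 counts per kilobase of exon, a level taken over all 4 libraries, compares with a median of 45.7 among the 29. LINC00571 (chromosome 13, 38050817 to 38143232), at 426 counts per kilobase, had 585 and 654 counts with BHB and 783 and 652 in controls. LINC00847 (chromosome 5, 180830957 to 180835726) had 610 and 578 counts with BHB and 711 and 742 in controls, both BHB counts below both controls. LINC00337 (chromosome 1, 6234692 to 6239444) had 486 and 464 counts with BHB, both between the 623 and 453 of the controls. With LINC01504, which is described below, these held 50.6% of the mean counts of the 29.

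The next members by abundance showed no separation of the groups in the deposited counts. LINC01291 (chromosome 2, 74918148 to 74938418) had 411 and 378 counts with BHB and 357 and 410 in controls. LINC01018 (chromosome 5, 6582136 to 6588499), a gene known for its expression in liver, had 284 and 294 with BHB and 282 and 284 in controls. LINC00867 (chromosome 10, 118357108 to 118365103) had 278 and 227 with BHB and 302 and 252 in controls. In LINC01291 and LINC00867 the counts of the 2 groups overlapped. LINC02593 (chromosome 1, 916865 to 921016) had 290 and 229 with BHB and 248 and 254 in controls. LINC02067 (chromosome 3, 161426427 to 161448242) had 225 and 230 with BHB and 234 and 222 in controls. In both of these the groups overlapped too. The lowest level per kilobase among the 29 was that of LINC00662 (chromosome 19, 27684580 to 27793940), an RNA described as raised in several cancers. It had 3.52 counts per kilobase over an exon length of 33198 bases in the table, against 7958 bases in release 29.

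**Figure D1:**
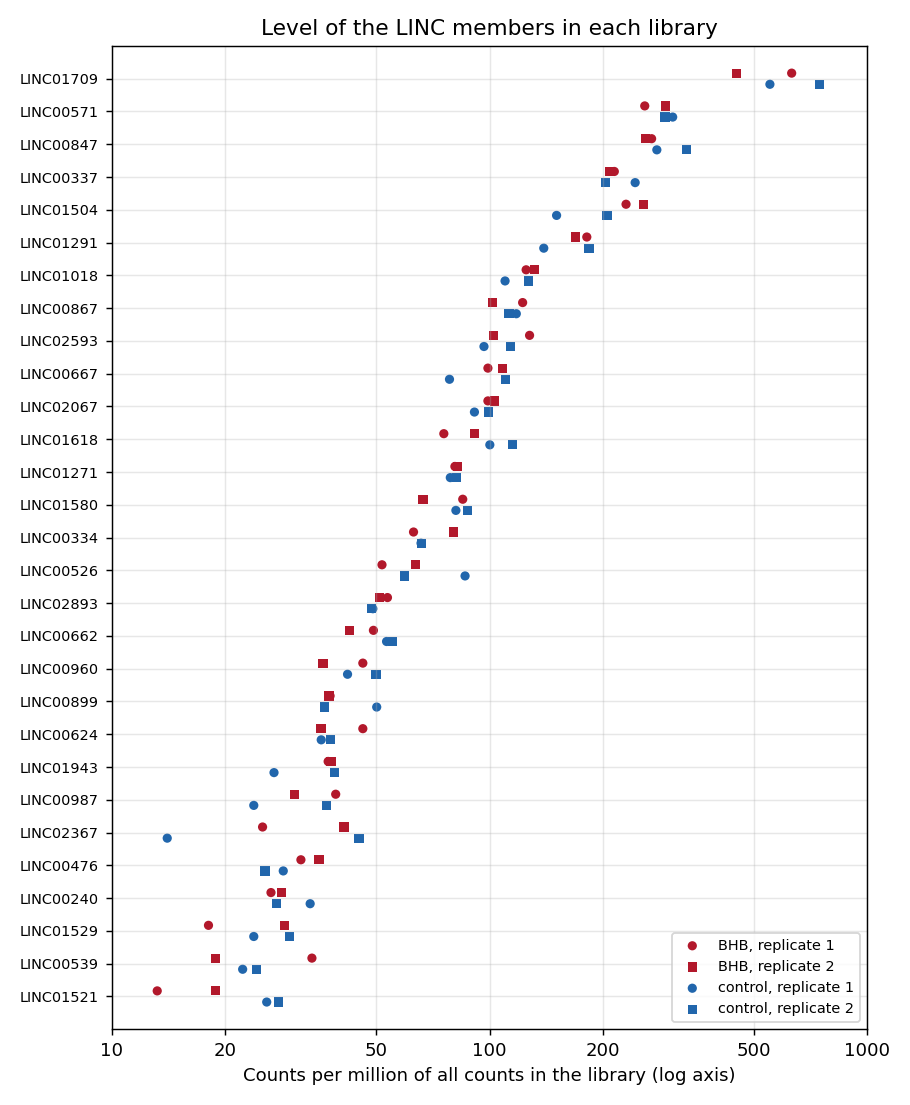
Level of each of the 29 LINC members in each library, in CPM (the count per 1000000 counts of the library) on a log axis, with members ordered by mean count. Red marks are the 2 BHB libraries and blue marks the 2 control libraries, with circles for replicate 1 and squares for replicate 2; LINC01709 lies at the top, and in LINC01521 at the bottom both BHB values (13.2 and 18.8) lie below both control values (25.7 and 27.7).

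The design asked whether BHB changes expression, and none of the 29 passed. In counts simulated for the same 4 libraries, edgeR recovered 0% of 1.5-fold, 2.985% of 2-fold and 50% of 4-fold changes. A member left uncalled is therefore not shown to be unchanged. In the edgeR quasi-likelihood test of 9295 features, 0 of the 29 were higher and 0 lower at an adjusted p (Benjamini-Hochberg, FDR) under 0.05, where 0% of all features were called in either direction. None had an unadjusted p under 0.05, against 210 (2.26%) of all features, and DESeq2 and limma-voom also called 0 of the 29, with 0 at an unadjusted p under 0.05. Fitted log2 fold changes of BHB over control ran from −0.78 to 0.39, with 14 above 0 and 15 below. Their median was −0.02, beside −0.03 over all features tested. Standard errors (SE) of single members ran from 0.24 for LINC00337 to 0.61 for LINC02367.

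The order of the libraries was described in CPM in 2 ways, because TMM scaling, which sets the libraries by the bulk of features, treated the controls unequally. Its factors were 1.01 in each BHB library, 1.10 in control replicate 1 and 0.886 in control replicate 2. With TMM, both BHB libraries lay above both controls in 1 of the 29 (3.45%) and below both in 6 (20.7%), where 15.1% and 14% of all tested features did so. With CPM of the total count and no scaling factor the numbers were 3 above (10.3%) and 4 below (13.8%), where the shares over all features were 19.7% and 13.8%. The part above both controls was thus 14.3% of the non-overlapping members with TMM and 42.9% with total counts. Over all 9295 tested features 1400 lay above both controls and 1298 below with TMM. With total counts 1832 lay above and 1284 below. In 3 members, LINC01521, LINC01618 and LINC00476, the groups did not overlap under either scaling. The share of all tested features that did so under both scalings was not counted, so the 3 are named as a description. LINC01521, counted as below in both ways, reached the minimum mean only through the controls. The shares of the 29 and of all features are set side by side as a description, and the difference between them was not tested.

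LINC01521 (chromosome 22, 31346777 to 31348719), which starts beside the zinc finger gene PATZ1 on the other strand, had the largest fitted difference of the 29. It had 30 and 42 counts in BHB libraries and 66 and 62 in controls. Both BHB values were below both controls. In TMM-scaled CPM this was 16.1 ± 4.01 with BHB and 27.7 ± 5.52 in controls (SD, n = 2 each), with a fitted log2 difference of −0.78 (SE 0.42; adjusted p = 1.0 in edgeR). It was also the member with the lowest mean, at 50 counts, and the single one that reached the minimum only through one group, since its mean was 36 counts with BHB and 64 in controls. A selection of this kind favours a difference.

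LINC01618 (chromosome 4, 52789994 to 52815464) had 172 and 204 counts in BHB libraries and 257 in each control. Both BHB values were lower with TMM and with total counts, but with TMM the nearest values were 91.8 CPM in BHB replicate 2 and 92.6 CPM in control replicate 1. The groups overlapped with upper-quartile scaling and with both other filters on low counts. It had 83.8 ± 11.3 TMM-scaled CPM with BHB and 112 ± 27.1 in controls (SD, n = 2 each), with a fitted log2 difference of −0.41 (SE 0.29; adjusted p = 1.0 in edgeR). LINC00526 (chromosome 18, 5236724 to 5238598) had 118 and 142 counts with BHB and 221 and 133 in controls, with a log2 fold change of −0.35 (SE 0.28). Here control replicate 1 stood alone, and with total counts and no scaling factor the groups overlapped. LINC00899 (chromosome 22, 46039907 to 46044853), an RNA reported in human cells to limit the microtubule-stabilising protein TPPP in mitosis, had 86 and 84 counts with BHB and 129 and 82 in controls. Its log2 fold change was −0.22 (SE 0.31), and its BHB counts lay between those of the controls. LINC00240 (chromosome 6, 26956992 to 27023924) had 60 and 63 counts with BHB and 86 and 61 in controls, a log2 fold change of −0.18 (SE 0.35). LINC00337 completed the 6 that lay below both controls with TMM, at −0.11 (SE 0.24). LINC00847 and LINC00662 lay below both controls with total counts. LINC00847 had 264 ± 6.88 CPM of the total count with BHB and 304 ± 38.5 in controls, and LINC00662, with 112 and 95 counts with BHB and 137 and 124 in controls, had 45.9 ± 4.78 CPM of the total count with BHB and 54.4 ± 1.42 in controls (SD, n = 2 each).

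LINC01504 (chromosome 9, 72305430 to 72343210) had the highest fitted log2 fold change. It had 522 and 570 counts with BHB and 386 and 458 in controls, so that both BHB counts were above both controls. In CPM of the total count this was 243 ± 18.0 with BHB and 178 ± 38.3 in controls (SD, n = 2 each), with a fitted log2 difference of 0.45 (SE 0.18; adjusted p = 0.89 in edgeR). With TMM the log2 fold change was 0.39 (SE 0.30; adjusted p = 1.0 in edgeR) and the groups overlapped, at 230 and 256 CPM with BHB and 139 and 233 CPM in controls. LINC00476 (chromosome 9, 95759231 to 95875977) had 72 and 79 counts with BHB and 73 and 57 in controls. Its log2 fold change was 0.28 (SE 0.35), and both BHB libraries lay above both controls in CPM under both scalings. LINC02893 (chromosome 9, 87008455 to 87042126) lay above both controls with total counts alone, at 52.4 ± 1.88 CPM with BHB and 48.9 ± 0.289 CPM in controls (SD, n = 2 each), from 122 and 114 counts with BHB and 126 and 109 in controls.

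**Figure D2:**
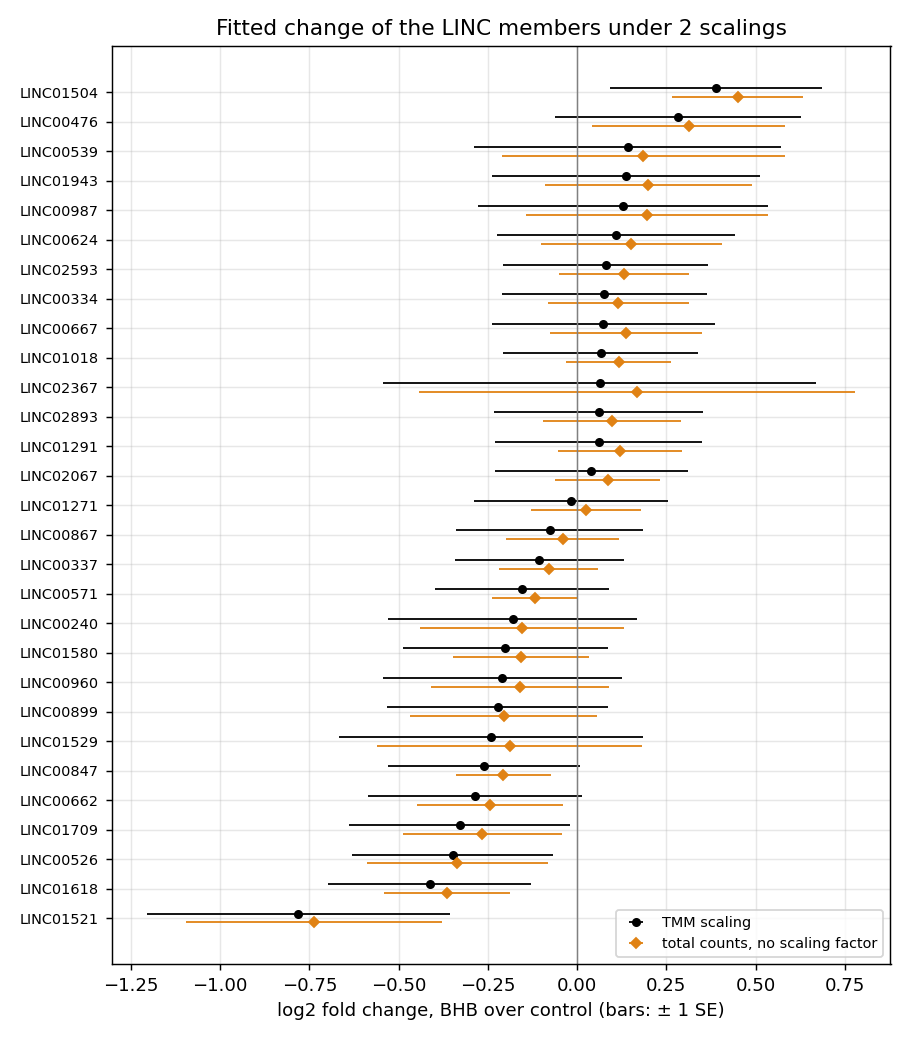
Fitted log2 fold change of BHB over control for each of the 29 members from the edgeR fit of the whole table, with bars of ± 1 SE. Black circles are the fit with TMM scaling and orange diamonds the fit with total counts and no scaling factor; values run from −0.78 in LINC01521 to 0.39 in LINC01504 with TMM, and the diamonds lie to the right of the circles in each member.

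Replicate libraries differed less in these features than in the table as a whole, which also holds features of lower counts, and the gap was widest among the controls. The log2 ratio of replicate 1 to replicate 2, in CPM of the total count, had a median of −0.02 (SD 0.34 over the 29) in the BHB libraries and −0.12 (SD 0.41) in the controls. Over all tested features with a mean of at least 20 counts it was 0.01 (SD 0.41) in BHB libraries and 0.09 (SD 1.01) in controls. Control replicate 1 was the lower control in 21 of the 29 with total counts and in 27 with TMM, where the median log2 ratio between the controls became −0.42, beside −0.21 over all tested features with a mean of at least 20 counts. LINC02367 (chromosome 12, 9367464 to 9397617) differed most between the controls, with 57 and 92 counts in BHB libraries and 36 and 101 in controls. Its BHB values lay between those of the controls. At the other end LINC00526 had a log2 ratio of 0.54 between the controls. Between the BHB libraries LINC00539 differed most, with a log2 ratio of 0.85.

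Members were called when 1 of the control libraries was left out, and the direction differed with the control. Without control replicate 1, edgeR called 0 of the 29 higher and 4 (13.8%) lower, where 5.84% and 6.38% of all tested features were called higher and lower. The 4 were LINC01709, at a log2 fold change of −0.66 (SE 0.10), LINC00847, at −0.53 (SE 0.12), LINC01618, at −0.66 (SE 0.18), and LINC01521, at −0.99 (SE 0.34). Without control replicate 2 it called 4 (13.8%) higher and 0 lower, where 9.43% and 7.21% of all tested features were called higher and lower. These were LINC01504, at 0.84 (SE 0.14), LINC02367, at 1.39 (SE 0.35), LINC00667, at 0.56 (SE 0.19), and LINC01291, at 0.49 (SE 0.15). The lone control is assumed in these fits to vary like the BHB pair. LINC01521 reached the minimum mean only through the controls, which favours a lower value with BHB. No member was called in both fits (0 of 29), and without either BHB library 0 of the 29 were called. The median log2 fold change of the 29 was −0.24 without control replicate 1 and 0.21 without control replicate 2.

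**Figure D3:**
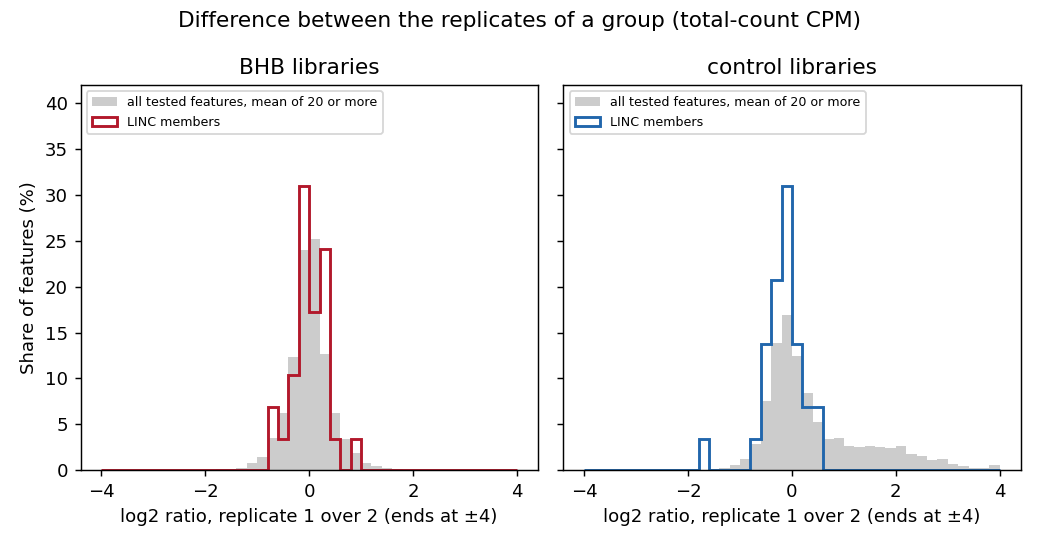
Log2 ratio of replicate 1 to replicate 2 in CPM of the total count, for BHB libraries (left) and control libraries (right), with the share of features in percent on the vertical axis. Grey bars are tested features with a mean of at least 20 counts and a count in both libraries (6631 on the left, 6622 on the right), and outlines are the 29 LINC members; among controls the grey bars stretch far to the right (SD 1.01) while the members do not (SD 0.41).

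Of the 6 members with exons opposite those of a coding gene, 5 had a higher mean count than that gene, and a higher mean count per kilobase of exon. Each member had to reach a mean of 50 counts and the coding genes did not, so the selection favours the LINC name. The order within these pairs is therefore a description and not a finding. LINC00337 overlaps 89 exonic bases of ICMT, the enzyme that methylates the processed end of prenylated proteins such as RAS. ICMT had 41 and 85 counts in BHB libraries and 64 and 50 in controls, a level of 12.2 counts per kilobase, against 215 for LINC00337. LINC00334 (chromosome 21, 45234340 to 45264548) overlaps 310 exonic bases of POFUT2, a protein O-fucosyltransferase, and had 143 and 179 counts with BHB and 169 and 148 in controls. POFUT2 had 8 and 6 counts with BHB and 4 and 0 in controls, far below the LINC name in every library.

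LINC00624 (chromosome 1, 147258885 to 147517875), an RNA reported in breast cancer to act with the RNA editing enzyme ADAR1, overlaps 210 exonic bases of CHD1L, a chromatin remodeller of DNA repair. It had 105 and 80 counts with BHB and 92 and 85 in controls, and CHD1L had 5 in each BHB library and 17 and 5 in controls. LINC01529 (chromosome 19, 35785697 to 35797902) had 41 and 64 counts with BHB and 61 and 66 in controls, where ARHGAP33, a gene with 209 exonic bases opposite it, had 0 and 2 in both groups. The groups overlapped in both LINC names. In the other two pairs the counts were closer. LINC00476 overlaps 277 exonic bases of ERCC6L2, a helicase-like gene mutated in bone marrow failure, which had 68 and 69 counts with BHB and 63 and 64 in controls. LINC00960 (chromosome 3, 75672391 to 75679303) had 105 and 81 counts with BHB and 108 and 112 in controls. It was the exception, with ZNF717, a zinc finger gene sharing 319 exonic bases, at 176 and 201 counts with BHB and 144 and 177 in controls.

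**Figure D4:**
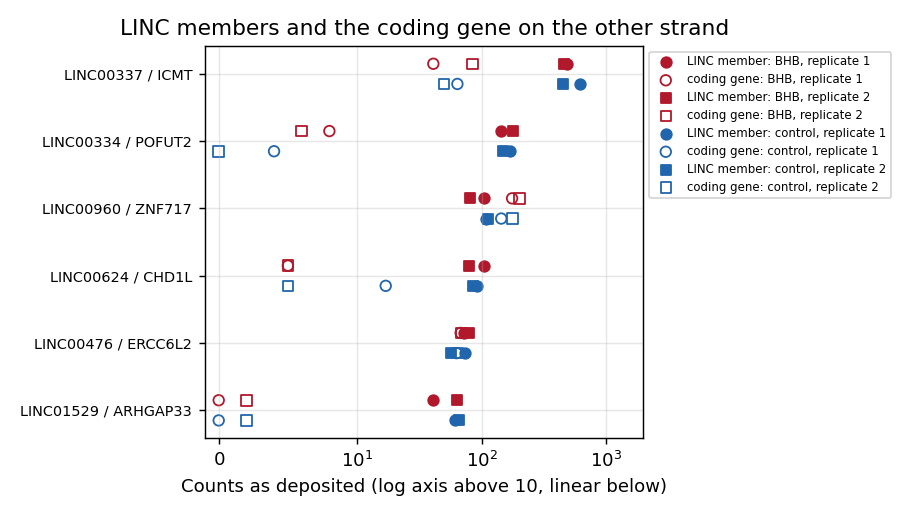
Deposited counts per library of the 6 LINC members with exons opposite a coding gene (filled marks) and of that coding gene (open marks), on an axis that is logarithmic above 10 and linear below. Red is BHB and blue is control, with circles for replicate 1 and squares for replicate 2; filled marks lie to the right of open ones for ICMT, POFUT2, CHD1L and ARHGAP33, close to them for ERCC6L2 and to their left for ZNF717.

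The 6 members opposite coding exons had a median log2 fold change of −0.01 and the other 23 one of −0.02. Several LINC members lie opposite other noncoding genes. LINC00847 overlaps 514 exonic bases of HEIH, a noncoding RNA reported in liver cancer to bind EZH2, and HEIH had 19 and 29 counts with BHB and 43 and 15 in controls. Its BHB counts lay between those of the controls. LINC01943 (chromosome 2, 87439523 to 87459044) had 85 counts in each BHB library and 69 and 87 in controls, while CYTOR, a cancer-associated noncoding RNA opposite 405 of its exonic bases, had 2 and 0 with BHB and 0 and 2 in controls. LINC01271 (chromosome 20, 50310711 to 50321342) had 184 counts in each BHB library and 202 and 183 in controls, and LINC01270, which shares 1333 exonic bases with it on the other strand, had 4 and 0 with BHB and 2 and 4 in controls. In each of these pairs the LINC member held nearly all counts, but the minimum mean was asked of the members only, which favours this order.

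LINC00526 and LINC00667 (chromosome 18, 5237826 to 5246508) are both among the 29. By GENCODE release 29 they share 773 exonic bases on opposite strands, while by the RefSeq starts shown above they run away from each other without overlap, so the annotations differ here. LINC00667 had 225 and 242 counts with BHB and 201 and 247 in controls, and LINC00526, as given above, 118 and 142 with BHB and 221 and 133 in controls. Per kilobase of exon LINC00526 was the higher, at 81.9 counts against 22.7 for LINC00667. Their fitted log2 fold changes were −0.35 (SE 0.28) and 0.07 (SE 0.31), and control replicate 1 was the highest library for LINC00526 and the lowest for LINC00667. The difference between these 2 log2 fold changes was not tested.

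Of a chosen list of 40 LINC names with a described role, 29 were in the table under that name and 3 were tested. LINC00662 alone of the list is among the 29 members. The list does not hold every such name, and LINC00899 and LINC00624, described above, are not on it. LINC00963, described in the progression of LNCaP to C4-2 cells, had 13 and 21 counts with BHB and 21 and 6 in controls, which overlap. Of 36 other noncoding RNA genes, all in the table, 15 were tested and 8 were at 0 in all 4 libraries, RMRP, TERC and RN7SK among them. Of the fitted log2 fold changes 8 were above 0 and 7 below, with a median of 0.16. In edgeR 0 were called, with 1 at an unadjusted p under 0.05. MALAT1 had 38 and 43 counts with BHB and 74 and 10 in controls, and NEAT1 had 20 and 25 with BHB and 48 and 7 in controls. What set these low counts was not tested. OIP5-AS1, a cytoplasmic RNA that binds the protein HuR, had 420 and 408 counts with BHB and 451 and 422 in controls (log2 fold change −0.03, SE 0.26). PCAT1, a prostate cancer transcript, had 780 and 805 with BHB and 951 and 791 in controls (−0.08, SE 0.24). In OIP5-AS1 both deposited BHB counts were below both controls, and in PCAT1 they overlapped. These counts are not scaled for the library total, which was largest in control replicate 1, so the order in OIP5-AS1 is not read as a difference. The 1 at an unadjusted p under 0.05 was PCA3, a prostate cancer transcript measured in urine, with 3747 and 3207 counts with BHB and 1906 and 2013 in controls (log2 fold change 0.85, SE 0.27; adjusted p = 1.0 in edgeR).

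At the edge of the rule, LINC01521 at a mean of 50 counts and LINC00539 at 57.5 were the last inside it. LINC00539 (chromosome 13, 21303515 to 21348721) had 77 and 42 counts with BHB and 57 and 54 in controls, with both controls between the BHB values. The first outside were LINC02482, at a mean of 38.25 counts, with 33 and 32 with BHB and 43 and 45 in controls, and LINC02637, at a mean of 37 counts, with 33 and 32 with BHB and 37 and 46 in controls.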

How the data were processed

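The deposited table holds raw counts and an exon length for each of 59385 features and was used as it stands. The submitters' processing notes name HISAT2 2.2.1 and featureCounts 2.0.3 as well as limma and edgeR, and GRCh38 (hg38). The annotation release and the handling of reads with several matches were not given in the sources used here. Counts were fitted with edgeR 4.0.16 in R 4.3.3 (filterByExpr defaults, TMM, robust quasi-likelihood F-test, no replicate block), and p-values were adjusted over all 9295 tested features. SE come from the F statistic. The script was tested on simulated data. Alternatives were other scalings, other filters, DESeq2 1.42.0, limma-voom (limma 3.58.1), a replicate block, other minimum means and leaving out each library. Features were placed on GENCODE release 29 by name or current symbol. Replicates differed by more than sampling noise (chi-square per degree of freedom 2.59 for BHB and 15.1 for control libraries).

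Named were the 10 most abundant members, members called with all 4 libraries, up to 8 per direction with non-overlapping groups in TMM-scaled CPM, members on a list of described LINC names, up to 6 opposite coding exons and the 2 on either side of the minimum. LINC02067, LINC02367, LINC02893, LINC01943 and LINC01271 fall outside this rule and were chosen after their values were seen. The members and lists were chosen with earlier results of these data known.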

Additional observations from a re-analysis of the deposited data

How the results depend on the processing

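The counts of 0 features and 0 LINC members called in either direction held with 3 different scalings, with 2 different filters, in DESeq2, in limma-voom and in a fit with a replicate block, whose median log2 fold change of the 29 was −0.0078. Replicate numbers were not taken as pairs, since the deviations of same-numbered libraries had a correlation of −0.02 over 9295 features. Members above both controls numbered 2 with upper-quartile scaling (LINC01504 and LINC00476), where 17.3% of all features did so, and 3 with total counts, where 19.7% did. With TMM they numbered 7 among the 42 names with a mean of at least 20 counts, of which 8 lay below both controls. Among the 19 with at least 100 counts 0 lay above and 3 below, beside 15.1% above and 14% below over all features. The median log2 fold change was 0.050 over these 42 and −0.077 over these 19. When each library was left out in turn, edgeR called 0 to 1035 features of the table higher and 0 to 791 lower, and 0 to 4 members higher and 0 to 4 lower. Members above both controls then numbered 1 to 15 and members below 5 to 24, since fewer libraries overlap less often by construction; over all features 24.5% to 42.7% lay above and 23% to 42.8% below. The median ran from −0.24 to 0.21. The log2 fold change then ran from −0.53 to 0.084 for LINC00847, −0.092 to 0.25 for LINC02893, −0.66 to 0.12 for LINC01709, −0.26 to 0.49 for LINC01291, −0.29 to 0.56 for LINC00667 and −0.64 to 1.39 for LINC02367, so these 6 changed sign. For the 15 members that were called without 1 library or had non-overlapping groups, 120 of 120 values from the alternatives that keep every library kept their direction and stayed uncalled. The cause of these changes was not tested.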

Other observations

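Below the minimum of 50, another 13 LINC names averaged 20 counts or more. In the edgeR fit 0 of the 13 were called, with 0 at an unadjusted p under 0.05. In TMM-scaled CPM both BHB libraries lay above both controls in 6 of them (46.2%) and below in 2 (15.4%), where 15.1% and 14% of all tested features did so. With total counts the numbers were the same, beside 19.7% and 13.8% of all features, and the difference from these shares was not tested. The following were chosen after their values were seen. LINC01089 had 37 and 44 counts in BHB libraries and 24 and 19 in controls, with a fitted log2 difference of 0.98 (SE 0.48; adjusted p = 1.0 in edgeR). LINC02393 had 37 and 34 counts with BHB and 9 and 26 in controls, a wider gap between the controls than between the nearer control and the BHB libraries. LINC00216 had 40 and 24 counts with BHB and 14 and 20 in controls.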
